A study of Mus musculus with 9 samples.

Results

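Heat shock proteins and their partners are the chaperones that fold newly made proteins, refold damaged ones and carry clients between compartments. The genes described here were all those listed whose symbol begins with Hspa, Hspb, Hspd, Hspe, Hsph, Hsp90, Dnaja, Dnajb, Dnajc or Pdia, together with Cct2 to Cct8 and Tcp1. They made up 88 of the 23234 genes in the tables, and 68 of them reached the mean of 1 FPKM over all libraries that was needed for testing. FPKM is the number of sequenced fragments per kilobase of transcript, scaled to the mapped fragments of the library. By the known site of their proteins, 44 were assigned to the cytosol and nucleus (35 tested), 19 to the endoplasmic reticulum or ER (18 tested) and 8 to mitochondria (all 8 tested). The remaining 17 (7 tested) had another site, or one that was not assigned.

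RNA was sequenced from group 2 innate lymphoid cells (ILC2s), lymphocytes that make type 2 cytokines. The mice were C57BL/6 of wild-type genotype, and the cells came out of their fat-associated lymphoid clusters. All 9 libraries came from cells held for 48 h with IL-33 at 10 ng/ml, the alarmin that activates these cells. It was the sole cytokine in 3 libraries, was joined by the type II interferon IFN-γ in 3, and by IL-27, a cytokine of the IL-12 family, in 3, each at 10 ng/ml. The labels name no culture without IL-33, and no label ties replicates to separate cultures or animals, so a p-value here stands for the spread among libraries only. As bulk RNA, they cannot tell fewer cells of a type from less RNA per cell.

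The replicate 3 libraries of all 3 groups stood apart in some markers of other cells. The summed FPKM of 8 fibroblast markers, 7 of them at a mean of at least 1 FPKM, was 36.2 to 86.5 in the replicate 3 libraries, 5.55 to 17.6 in replicate 1 and 2.92 to 7.67 in replicate 2. Of these, Lum went the other way, at 4.86 to 16.8 FPKM in replicate 1 and 1 to 3.2 in replicate 3. Summed T cell markers, mostly Cd3g, were at 82 to 105 FPKM in replicate 3 and 34 to 49 in replicate 1. Mast cell and plasma cell sums were also highest in replicate 3, while B cell, macrophage and endothelial sums overlapped. Summed immediate early genes, which respond to handling, were at 262 to 840 FPKM under IL-33 alone (840 in replicate 3), 239 to 300 with IFN-γ and 238 to 352 with IL-27. Junb was the highest of these genes in every library, and single genes differed in direction. Atf3 was at 0 to 1.72 FPKM under IL-33 alone, 20.2 to 27.4 with IFN-γ and 5.26 to 7.1 with IL-27. Ier3 went the other way, at 28.4 to 57.4, 4.25 to 11.4 and 0 to 10.5 FPKM. All 11 ILC2 markers were detected. The cytokine genes Il5 and Il13 together were at 11569 to 20256 FPKM under IL-33 alone, 4167 to 6798 with IFN-γ and 9229 to 10014 with IL-27, while the other 9 markers summed to 1970 to 2825, 1572 to 2540 and 2127 to 3206 FPKM, which overlap. Within that sum, 2 markers did not overlap with IL-33 alone and went opposite ways. Il2ra was at 877 to 1018 FPKM under IL-33 alone, 314.5 to 414 with IFN-γ and 413 to 576 with IL-27. Areg was at 62.7 to 104, 216 to 777 and 425 to 557 FPKM. The remaining markers of the sum overlapped with IL-33 alone. All 3 adipocyte markers were at 0 in every library. The part of these differences in the chaperone values was not tested, and blocked counts without replicate 3 are given beside the results.

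In the cytosol, Hsp70 proteins bind exposed stretches of client proteins with the help of J proteins and nucleotide exchange factors, and pass some clients to Hsp90 or to the ring-shaped chaperonin TRiC. The ER has its own set, in which BiP (Hspa5) and GRP94 (Hsp90b1) work beside protein disulfide isomerases on secreted and membrane proteins, and the unfolded protein response adjusts their supply. Mitochondria fold imported proteins with the Hsp60 and Hsp10 chaperonin (Hspd1 and Hspe1) and with mortalin (Hspa9). Lymphocytes that secrete cytokines in bulk draw on the ER set, and growing cells draw on all of them.

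Promoter sequences are shown first for the members whose windows held letters of a stress response. RefSeq windows (build GRCm38.p6) from 250 bases before to 50 bases after each annotated start were found for 73 of the 88 genes, 92 windows in all, and motifs were searched on both strands. The ER stress element (CCAAT, a spacer of 9 bases and CCACG) was present in 4 of the 18 ER windows (22.2%), in none of the 52 cytosolic and 6 mitochondrial windows, and in 39 of all 32851 windows (0.119%). Stretches holding it are printed 5′ to 3′ on the strand of the gene, with the matches in capitals. The Hspa5 stretch lies at chr2:34771940-34772089 (plus strand), that of Hsp90b1 at chr10:86705445-86705674 (minus strand, with 2 matches, the second on the opposite strand), that of Pdia6 at chr12:17266439-17266588 (plus) and that of Dnajc3 at chr14:118937782-118937931 (plus).
Hspa5: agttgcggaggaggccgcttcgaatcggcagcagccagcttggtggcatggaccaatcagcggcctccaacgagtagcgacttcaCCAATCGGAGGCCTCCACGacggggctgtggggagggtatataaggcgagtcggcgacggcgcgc
Hsp90b1: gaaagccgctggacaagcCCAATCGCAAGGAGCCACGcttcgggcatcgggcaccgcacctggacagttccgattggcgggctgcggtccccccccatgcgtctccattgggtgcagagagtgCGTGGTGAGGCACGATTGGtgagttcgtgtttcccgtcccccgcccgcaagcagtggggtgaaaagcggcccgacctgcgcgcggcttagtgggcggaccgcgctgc
Pdia6: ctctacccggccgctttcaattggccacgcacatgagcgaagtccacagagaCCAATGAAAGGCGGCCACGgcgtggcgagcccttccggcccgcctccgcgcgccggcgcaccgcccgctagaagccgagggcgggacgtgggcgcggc
Dnajc3: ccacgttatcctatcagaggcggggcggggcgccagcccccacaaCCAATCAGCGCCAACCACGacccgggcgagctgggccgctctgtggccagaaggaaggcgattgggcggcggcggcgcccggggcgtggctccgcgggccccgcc
The match began 65 bases before the start in Hspa5, 98 in Pdia6 and 105 in Dnajc3, and 212 and 107 bases before it in Hsp90b1. The unfolded protein response element TGACGTGG was in 1 ER window (5.56%), against 0.676% of all windows.

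The heat shock element was searched in its 2 arrangements of half-sites, which can overlap each other. The arrangement GAANNTTC was in 25% of cytosolic, 0% of ER and 33.3% of mitochondrial windows, against 7.86% of all windows, and TTCNNGAA was in 13.5%, 5.56% and 33.3% of them, against 8.52%. These shares count windows and not genes, and Dnajb6 and Hsph1 each gave overlapping windows with a match. Of the 13 cytosolic windows with GAANNTTC, those of Hspa1a, Hspa1b, Hspb1, Hspb3 and Hspb8 belong to untested genes. Both mitochondrial windows with a match belong to Hspd1 and Hspe1, which are transcribed away from each other from neighbouring starts. The shared stretch at chr1:55088053-55088082 (plus strand, the strand of Hspe1) is printed because its overlapping matches, in capitals, fall in both genes' windows.
Hspe1: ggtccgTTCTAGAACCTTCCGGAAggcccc
The 3 matches began 89, 84 and 79 bases before the Hspe1 start. The γ-activated site TTCNNNGAA, the letters bound by the transcription factor that IFN-γ activates, was in 3.85% of cytosolic windows and in 0% of ER and mitochondrial windows, against 8.3% of all. A match is a description of the letters in these windows and no evidence of binding.

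The most abundant chaperone mRNA was Hspa8, the constitutive cytosolic Hsp70, which ranked 17 among all 23234 genes by mean FPKM. It was followed by Hsp90ab1 (rank 91), the constitutive Hsp90, Pdia3 (rank 118), an isomerase of glycoproteins also known as ERp57, Hspa5 (rank 121), Hsp90b1 (rank 166) and Hspd1 (rank 210). Chaperone genes together took 1.98%, 2.33% and 2.06% of the summed FPKM in IL-33 replicates 1, 2 and 3, 1.58%, 1.83% and 1.53% with IFN-γ, and 1.72%, 1.97% and 1.57% with IL-27. Every library with a second cytokine was below the IL-33 library of its own number.

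**Figure D1:**
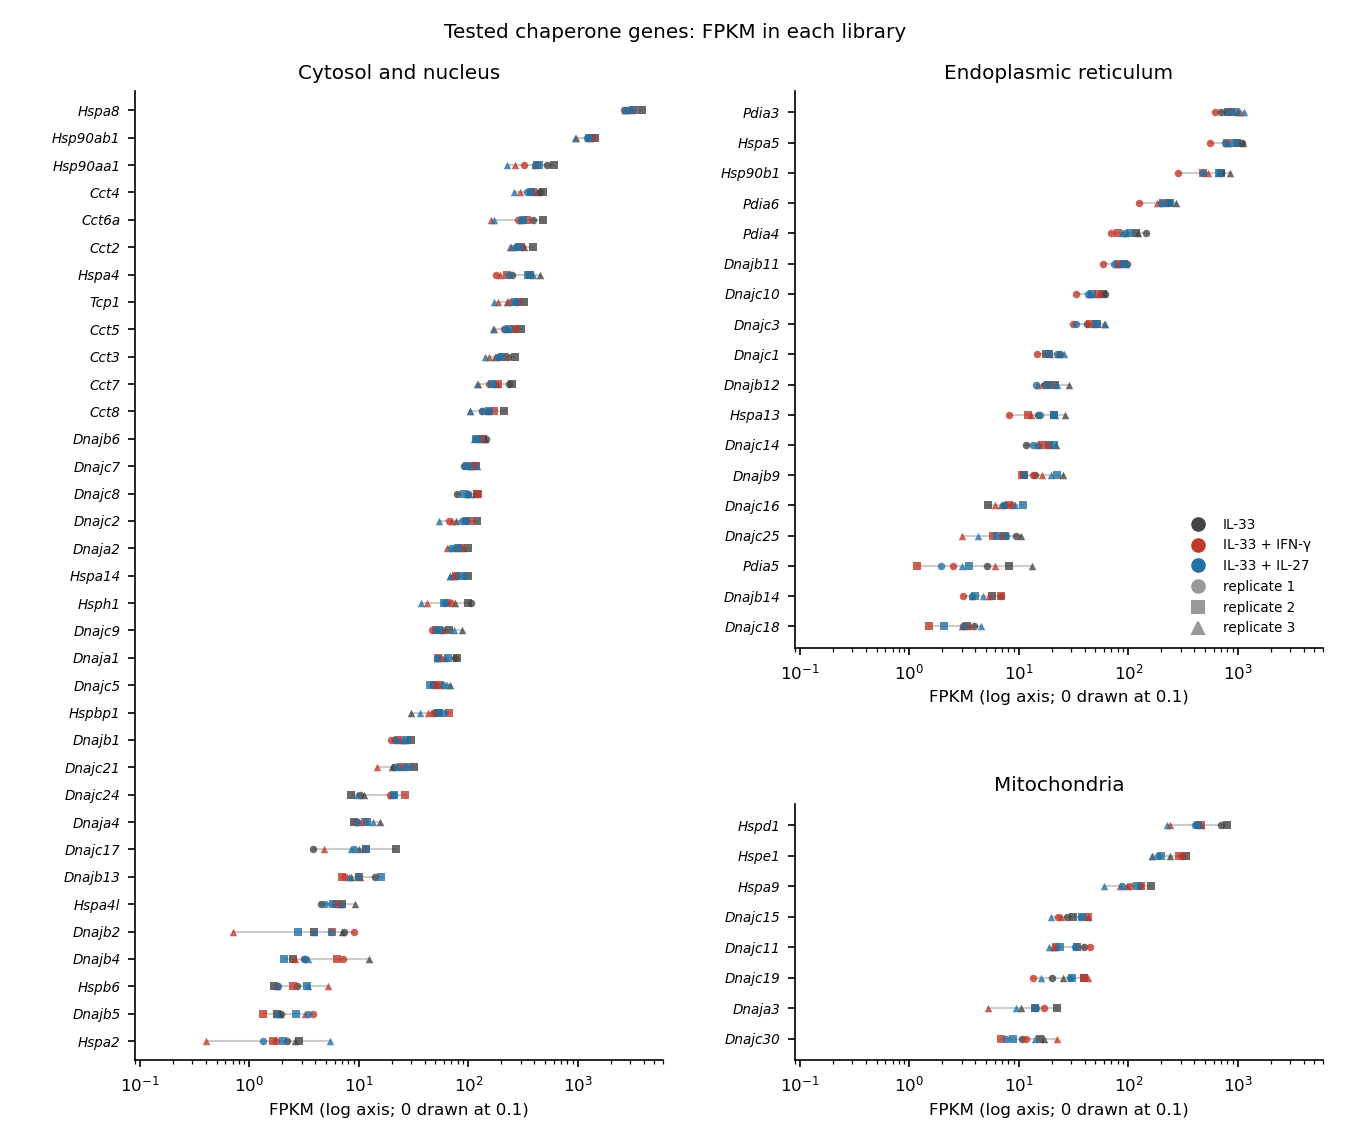
FPKM on a log axis (x) of each tested chaperone gene (y) in the 9 libraries, by compartment; colours mark the cytokine group and shapes the replicate number, and the grey line spans lowest to highest. Hspa8 lies between 2634 and 3858 FPKM in every library, above all other genes drawn.

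Of the genes that cells switch on under heat, Hspa1a, Hspa1b and Hspb1 were at the floor of detection. Hspa1a, a stress-inducible Hsp70, was between 0 and 1.44 FPKM, its near-identical neighbour Hspa1b between 0 and 1.78, and Hspb1, a small heat shock protein, was at 0 in 7 libraries and reached 1.4 FPKM. At the estimated depths of 885000 to 982000 fragments, 3 fragments in a transcript of 2 kb were worth 1.53 to 1.7 FPKM, so differences between groups were not detectable for these genes. Other heat-inducible members were well above that floor. Dnajb1, a J protein, was at 21.5, 29.9 and 26.8 FPKM under IL-33 alone, 19.6, 22.8 and 23.8 with IFN-γ, and 22.0, 27.1 and 25.5 with IL-27, which overlap, and Hsp90aa1 and Hsph1 were higher still. In all, 20 of the 88 genes were not tested, and 8 of these (Cct6b, Dnajb7, Dnajb8, Dnajc5b, Dnajc5g, Hspa12a, Hspb3 and Pdia2) were listed at 0 in every library.

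The first question was how IFN-γ changed the chaperones of IL-33-activated ILC2s. Most members had lower levels with IFN-γ in every compartment, with the lowest median in the ER, and none passed the limma test without the replicate number. Of the 68 genes, 56 (82.4%) were lower with IFN-γ than with IL-33 alone, against 47.4% of all 11014 genes tested. The median log2 fold change was -0.22 in the cytosol, -0.31 in the ER and -0.24 in mitochondria, against 0.03 over all genes tested and -0.02 over the 4406 with at least 20 FPKM. limma called 0 of the 68 at an adjusted p under 0.05 (background 2.91%), with the smallest adjusted p at 0.0881 for Pdia4. At an unadjusted p under 0.05 it gave 12 lower and 1 higher (background 6.05% lower and 9.35% higher).

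Libraries with the same replicate number deviated together, so a second limma fit that adds this number as a block, called the blocked fit, was made as well. The labels do not say whether equal numbers share a cell preparation, so the block rests on this pattern in the same data. A pair or partner library here means an equal number only. The blocked fit called 12 chaperone genes lower and 1 higher with IFN-γ, against a background of 4.66% lower and 6.51% higher. Of the ER genes it called 5 of 18 lower, of the cytosolic genes 6 of 35 lower and 1 higher, and of the mitochondrial genes 1 of 8 lower. The counts depended on single pairs of libraries: 5 genes were called without the replicate 1 libraries (Cct6a, Hsp90b1, Hspa4, Hspd1 and Hsph1), 0 without replicate 2 and 2 without replicate 3 (Hsp90aa1 and Hspd1). Hspd1 was the single gene called both without replicate 1 and without replicate 3. The share of all genes called in these smaller fits is not given here, so their counts have no background beside them. In same-numbered pairs, 32 of the 68 were lower with IFN-γ in all 3 (background 21.1%), and the groups did not overlap for 15 lower and 1 higher gene (background 8.65% and 11.9%).

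In the ER, Hspa5, which encodes BiP, the ER Hsp70 (chr2:34627490-34632051 in build mm9, plus strand), was measured at 1080, 991 and 1110 FPKM under IL-33 alone in replicates 1 to 3. It was at 559, 803 and 792 with IFN-γ, and at 764, 951 and 814 with IL-27. All 3 IFN-γ libraries and all 3 IL-27 libraries lay below the lowest IL-33 library. The log2 fold change with IFN-γ was -0.58 ± 0.18 (SE), a 1.49-fold lower level, with limma's adjusted p at 0.144 without the block and 0.0314 with it. With IL-27 it was -0.34 ± 0.18, adjusted p 0.619 and 0.211 in the blocked limma fit.

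Hsp90b1, the ER Hsp90 known as GRP94 (chr10:86152954-86168254, minus strand), stood at 706, 703 and 857 FPKM under IL-33 alone, at 283, 481 and 537 with IFN-γ, and at 477, 677 and 666 with IL-27. IFN-γ libraries were lowest in each replicate number, and replicate 1 was the lowest of them. The IFN-γ difference was -0.84 ± 0.25 (1.80-fold lower, 95% interval -1.40 to -0.28), with limma's adjusted p at 0.130 and 0.0117 in the blocked fit. With IL-27 the difference was -0.33 ± 0.25, adjusted p 0.765 and 0.270.

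Values differed among the disulfide isomerases, which form and rearrange disulfide bonds of ER proteins. Pdia4 (ERp72) was at 146, 117 and 122 FPKM under IL-33 alone, 68.8, 79.8 and 95.8 with IFN-γ and 93.3, 104 and 88.0 with IL-27. Both groups lay below IL-33, by -0.65 ± 0.17 with IFN-γ (limma adjusted p 0.0881, blocked 0.0357) and -0.42 ± 0.17 with IL-27 (0.467, blocked 0.180). Pdia6 (P5) was at 230, 234 and 273 FPKM under IL-33 alone, 125, 206 and 184 with IFN-γ and 200, 238 and 207 with IL-27. The IFN-γ libraries lay below all IL-33 libraries while the IL-27 libraries overlapped them, and the IFN-γ difference was -0.54 ± 0.20 (limma adjusted p 0.226, blocked 0.0498). Pdia3, at 701, 819 and 991 FPKM under IL-33 alone, was at 617, 872 and 1044 with IFN-γ and 806, 972 and 1136 with IL-27, groups that overlap throughout. Its difference was -0.01 with IFN-γ (95% interval -0.52 to 0.50, blocked limma adjusted p 0.978) and 0.22 with IL-27 (-0.29 to 0.72, blocked 0.232). Pdia3 was higher with IL-27 than with IL-33 in all 3 pairs.

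Hspa13, a smaller Hsp70 relative of the ER, was at 15, 20.7 and 26.5 FPKM under IL-33 alone, 8.11, 12.2 and 12.8 with IFN-γ, and 15.5, 21.0 and 21.4 with IL-27. The IFN-γ libraries were the lowest of the 9, and those with IL-27 lay within the range of IL-33. The IFN-γ difference was -0.84 ± 0.26 (limma adjusted p 0.155, blocked 0.00980). Dnajc3, an ER J protein also known as p58IPK, was lower with IFN-γ in all 3 pairs at a mean of 41.3 ± 8.96 FPKM (SD, n = 3), against 51.5 ± 9.55, but the groups overlapped and the blocked limma fit gave an adjusted p of 0.119. The J proteins Dnajb11 (-0.28, 95% interval -0.70 to 0.14) and Dnajb9 (-0.24, -1.0 to 0.52), both of which work with BiP, were not called in either fit. Of the 11 ER J proteins, limma called 0 in either fit and gave 1 lower at an unadjusted p under 0.05 (background 6.05%). Of them, 10 had a negative difference (background 47.4%), with a median of -0.27.

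**Figure D2:**
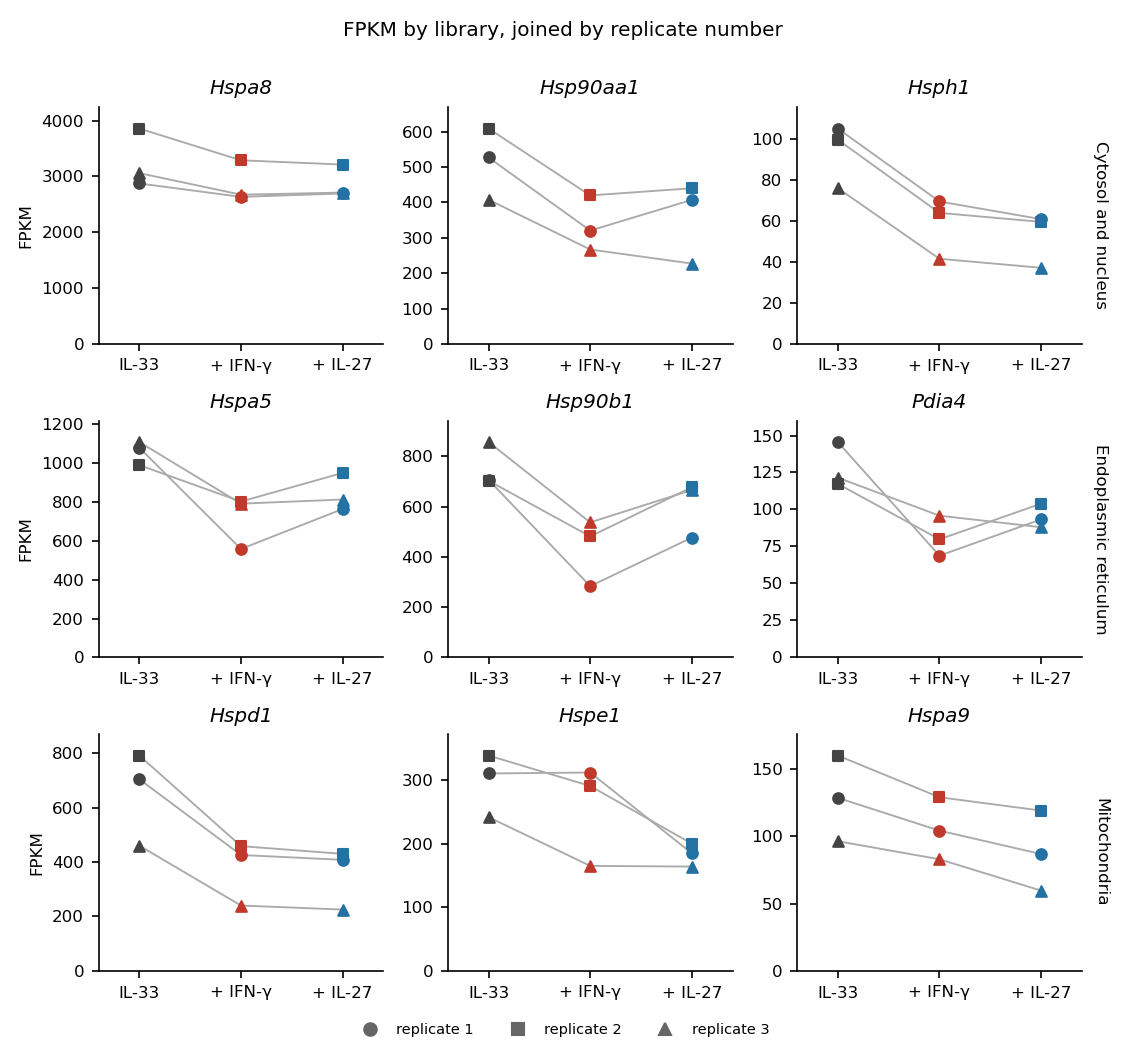
FPKM (y, from 0) of 9 chaperone genes, 3 per compartment, in the 3 cytokine groups (x); each point is a library and grey lines join equal replicate numbers. Hspa8, Hsp90aa1, Hsph1, Hspa5, Hsp90b1, Pdia4, Hspd1 and Hspa9 were lower in all 3 pairs of both comparisons with IL-33. Hspe1 was lower in all 3 pairs with IL-27, while with IFN-γ it was at the IL-33 level in replicate 1.

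In the cytosol, Hspa8 itself differed little. It was at 2874, 3858 and 3060 FPKM under IL-33 alone, 2634, 3289 and 2673 with IFN-γ and 2696, 3213 and 2711 with IL-27, lower in all 3 pairs of each comparison but with groups that overlap. The difference was -0.18 with IFN-γ (95% interval -0.57 to 0.20, blocked limma adjusted p 0.18) and -0.18 with IL-27 (-0.56 to 0.21, blocked 0.259). Hsp90ab1 was at 1354, 1435 and 1305 FPKM under IL-33 alone, 1232, 1345 and 966 with IFN-γ, and 1209, 1253 and 951 with IL-27, and neither comparison was called (-0.22 and -0.27, blocked limma adjusted p 0.181 and 0.16). Reads of both genes may be shared with close copies elsewhere in the genome, as may those of Hspd1 and Hspe1.

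Hsph1, Hsp90aa1 and Hspa4 had larger differences than Hspa8 with IFN-γ, and Hsph1 and Hsp90aa1 with IL-27 too. Hsph1, the Hsp110 that exchanges nucleotide on Hsp70 (chr5:150416862-150438951, minus strand), was at 105, 99.5 and 75.9 FPKM under IL-33 alone, 69.4, 63.9 and 41.5 with IFN-γ and 60.8, 59.5 and 37.1 with IL-27. No library with a second cytokine reached the lowest IL-33 library. The difference was -0.69 ± 0.26 with IFN-γ (limma adjusted p 0.241, blocked 0.00640) and -0.84 ± 0.26 with IL-27 (0.264, blocked 0.00469). Hsp90aa1, the inducible Hsp90, was at 527, 609 and 408 FPKM under IL-33 alone, 320, 420 and 267 with IFN-γ, and 407, 440 and 227 with IL-27. It was lower in all 3 pairs of both comparisons although the groups overlap, by -0.62 ± 0.28 with IFN-γ (limma adjusted p 0.329, blocked 0.0176) and -0.56 ± 0.28 with IL-27 (0.587, blocked 0.0412). Hspa4, a second exchange factor of the Hsp110 kind, was at 249, 362 and 450 FPKM under IL-33 alone, 181, 224 and 194 with IFN-γ, and 233, 354 and 387 with IL-27. Its IFN-γ libraries lay below all others, at -0.79 ± 0.25 (limma adjusted p 0.166, blocked 0.0137), and its IL-27 difference was -0.12 (95% interval -0.68 to 0.45). Hspbp1, another Hsp70 exchange factor, named after its values were seen, had overlapping groups with means of 43.9 ± 12.5, 52.3 ± 12.7 and 50 ± 12.5 FPKM (SD, n = 3) under IL-33 alone, with IFN-γ and with IL-27.

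TRiC, the chaperonin that folds actin and tubulin, is built from the Cct subunits and Tcp1. All 8 tested subunits were lower with IFN-γ and with IL-27 in all 3 pairs (background 21.1% and 19.5%), with median log2 fold changes of -0.34 and -0.39. Cct7 was at 234, 252 and 182 FPKM under IL-33 alone, 153, 185 and 123 with IFN-γ and 168, 165 and 120 with IL-27. Its IL-27 libraries lay below all IL-33 libraries, its IFN-γ libraries overlapped them in 1 library, and the blocked limma fit called it lower in both comparisons (adjusted p 0.0103 and 0.0140; unblocked 0.265 and 0.418). Cct6a was likewise called lower by the blocked fit in both (-0.62 and -0.59, limma adjusted p 0.0140 and 0.0253), with values of 390, 483 and 302 FPKM under IL-33 alone, 281, 344 and 162 with IFN-γ and 302, 316 and 173 with IL-27. Cct4 was called lower in that fit with IL-27 (-0.48, limma adjusted p 0.0311) and stood at -0.36 with IFN-γ (0.0532). Tcp1 had the smallest differences of the complex, -0.22 in each comparison.

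Among the cytosolic J proteins, the gene called higher with IFN-γ was Dnajc24, which takes part in making the diphthamide residue of a translation factor and was singled out after its values were seen. It was at 10.2, 8.43 and 11.1 FPKM under IL-33 alone, 19.3, 26.5 and 19.5 with IFN-γ, and 20.8, 20.7 and 9.7 with IL-27. All IFN-γ libraries were above all IL-33 libraries, and 1 IL-27 library was not. The IFN-γ difference was 1.05 ± 0.30 (2.08-fold higher, limma adjusted p 0.107, blocked 0.0483). Dnajc9, a histone co-chaperone also named after its values were seen, was called lower in the blocked fit with IFN-γ (-0.42, limma adjusted p 0.0435).

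**Figure D3:**
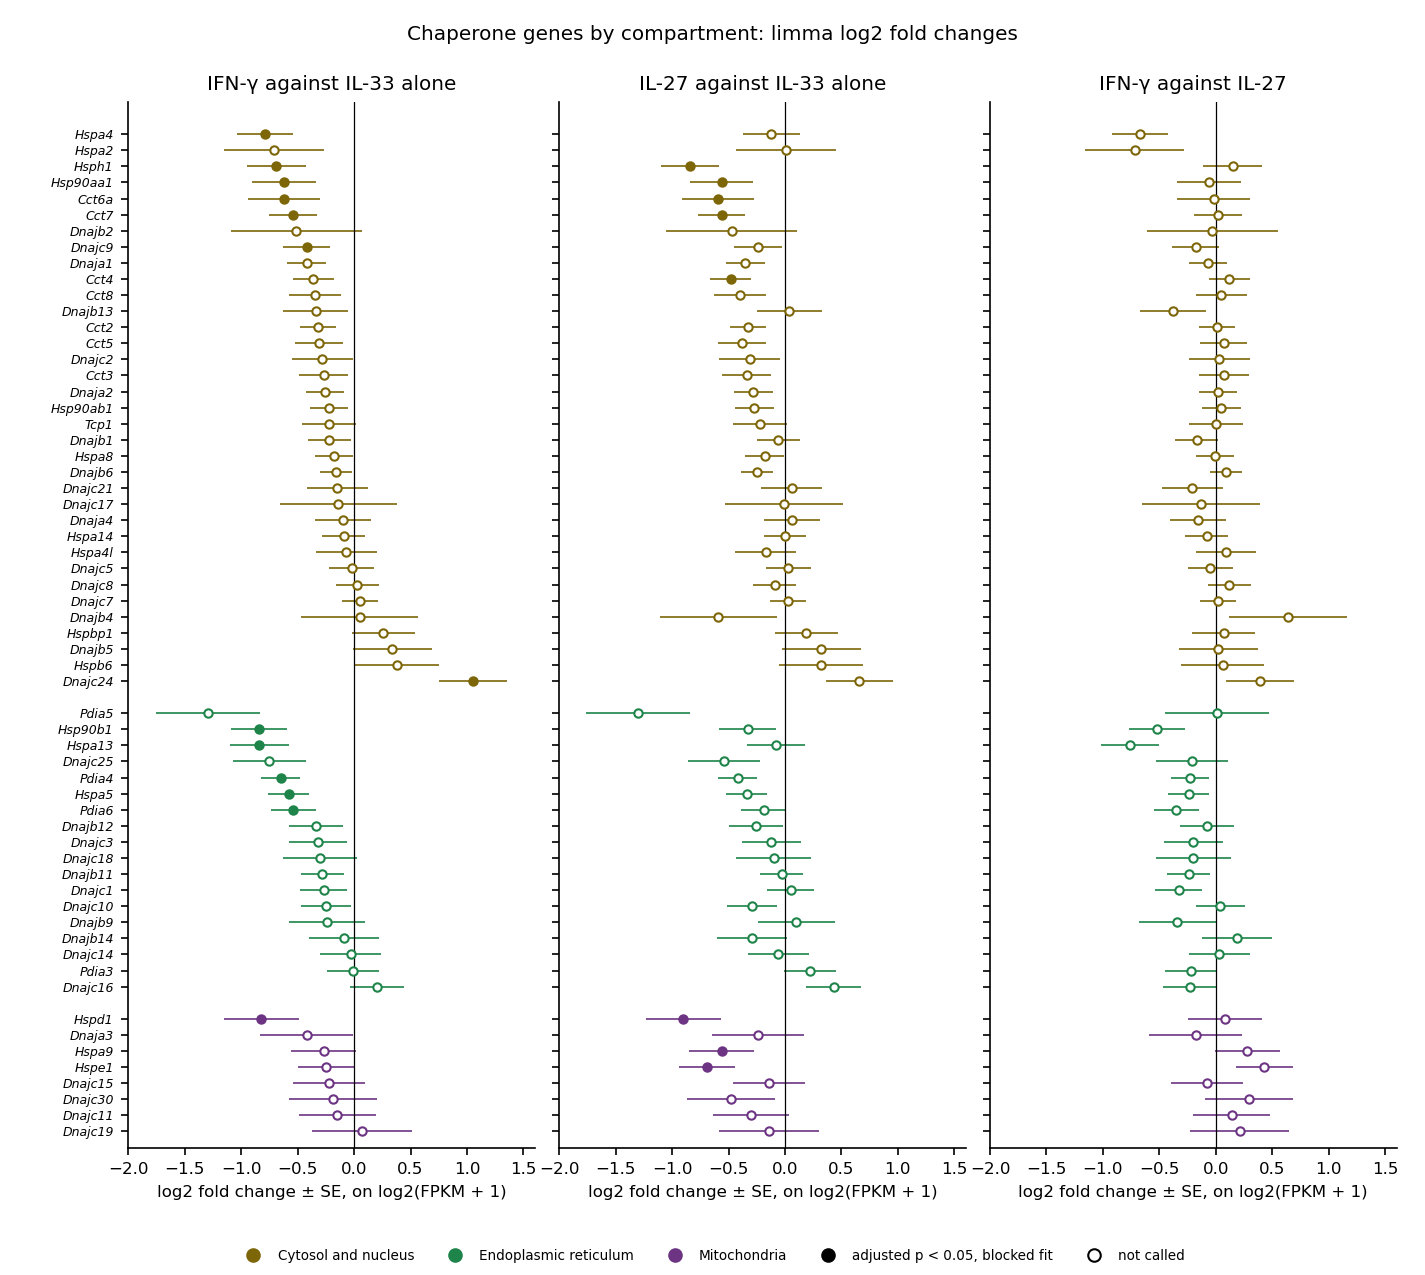
Log2 fold change (x) with limma's SE of the 61 tested cytosolic, ER and mitochondrial genes (y) in the 3 comparisons; points and bars come from the fit without the block, and filled points were called in the blocked fit. With IFN-γ filled points lie in all compartments, with IL-27 they lie among cytosolic and mitochondrial genes, and between IFN-γ and IL-27 there are none.

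In mitochondria, Hspd1, the Hsp60 chaperonin (chr1:55134679-55145087, minus strand), was measured at 704, 791 and 460 FPKM under IL-33 alone, 426, 458 and 240 with IFN-γ, and 408, 430 and 225 with IL-27. In each replicate number both second-cytokine libraries lay well below the IL-33 library, and neither group reached the lowest IL-33 library. The difference was -0.82 ± 0.33 with IFN-γ (1.76-fold lower) and -0.90 ± 0.33 with IL-27 (1.86-fold lower). limma's adjusted p was 0.274 and 0.392 without the block, and 0.00116 and 0.00133 with it. In the blocked limma fit it stayed under 0.05 without the replicate 1 libraries (adjusted p 0.0109 with IFN-γ and 0.0136 with IL-27) and without replicate 3 (0.0179 and 0.0249), and the call was lost in both comparisons without replicate 2 (0.0532 and 0.068).

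Hspe1, the Hsp10 lid of that chaperonin (chr1:55144976-55148151, plus strand), was at 310, 338 and 242 FPKM under IL-33 alone, 312, 290 and 165 with IFN-γ, and 185, 200 and 164 with IL-27. The IL-27 libraries lay below all IL-33 libraries, while IFN-γ replicate 1 was level with its IL-33 partner. Its difference was -0.69 ± 0.25 with IL-27 (limma adjusted p 0.372, blocked 0.0335) and -0.25 ± 0.25 with IFN-γ (0.699, blocked 0.297). Hspa9, the mitochondrial Hsp70, was at 129, 160 and 96.4 FPKM under IL-33 alone, 104, 129 and 83.0 with IFN-γ, and 86.9, 119 and 59.7 with IL-27. It was lower in all pairs of both comparisons with overlapping groups, and the blocked limma fit called it with IL-27 (-0.56, adjusted p 0.0212) and not with IFN-γ (-0.27, 0.129). The mitochondrial J proteins among the named genes were less abundant: Dnajc15 of the inner membrane (means of 33.9 ± 8.0, 29.7 ± 11 and 31.5 ± 10.4 FPKM, SD, n = 3) and Dnajc11, linked to cristae (31.4 ± 9.16, 29.0 ± 13.5 and 25.2 ± 6.98), and none was called.

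The second question was how IL-27 changed the same genes. It shares its IL-33 libraries with the IFN-γ comparison, so the values of both are set side by side and their likeness is not a result. With IL-27, 52 of the 68 genes were lower, against 48.5% of all genes tested, and the median log2 fold change was -0.22 in the cytosol, -0.15 in the ER and -0.39 in mitochondria, against 0.01 over all genes tested. limma called 0 of the 68 (background 1.03%), and 7 were lower and 1 higher at an unadjusted p under 0.05 (background 3.61% and 5.89%). The blocked limma fit called 8 lower and 0 higher (background 1.78% and 3.37%), 5 of them cytosolic (Cct4, Cct6a, Cct7, Hsp90aa1 and Hsph1) and 3 mitochondrial (Hspa9, Hspd1 and Hspe1). It called 0 of the 18 ER genes, of which 2 were lower at an unadjusted p under 0.05 (Pdia4 and Pdia5, the second named after its values were seen). Without replicate 1 the blocked count was 2 (Hspd1 and Hsph1), without replicate 2 it was 0, and without replicate 3 it was 2 (Hspd1 and Hspe1). Here too the smaller fits have no background beside them. In pairs, 33 of the 68 were lower in all 3 (background 19.5%), and the groups did not overlap for 14 lower and 1 higher gene (background 5.72% and 8.29%).

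Summed by compartment, the ER genes gave 3179, 3183 and 3700 FPKM under IL-33 alone, 1869, 2720 and 2943 with IFN-γ, and 2591, 3259 and 3240 with IL-27. Each IFN-γ sum was the lowest of its replicate number, and IL-27 replicate 2 was above its IL-33 partner. The mitochondrial genes summed to 1254, 1432 and 915 FPKM under IL-33 alone, 951, 1003 and 603 with IFN-γ, and 801, 864 and 527 with IL-27. Here each IL-27 sum was the lowest of its replicate number. Hspd1, Hspe1 and Hspa9 made up most of each mitochondrial sum, and Hspa5, Pdia3 and Hsp90b1 most of each ER sum. These orders describe the sums and not each gene. The TRiC subunits summed to 2307, 2708 and 2012 with IL-33, 1859, 2158 and 1433 with IFN-γ, and 1893, 2005 and 1384 with IL-27, without a fixed order between the second cytokines.

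**Figure D4:**
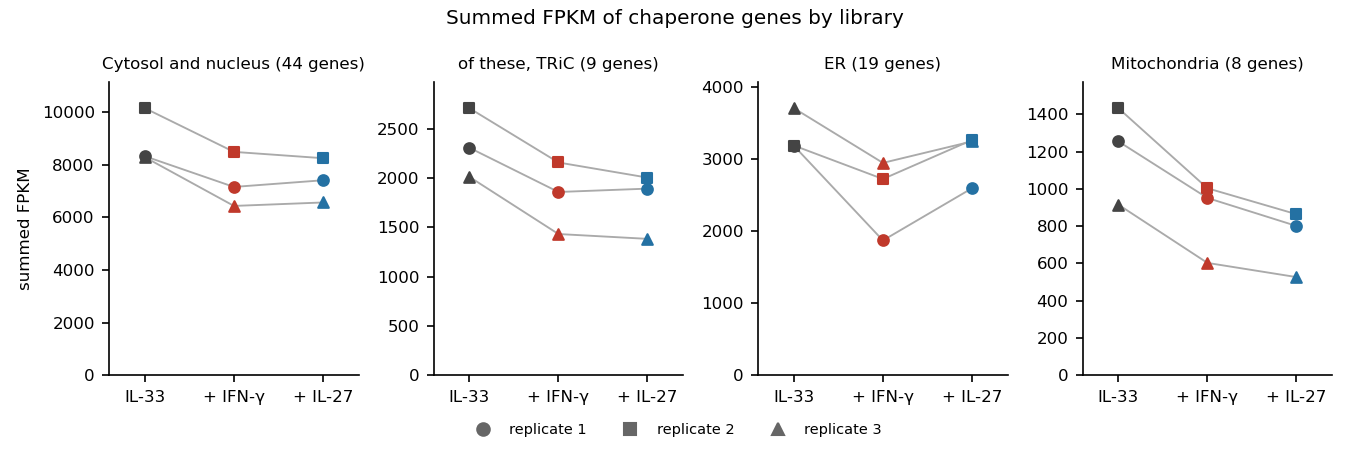
Summed FPKM (y, from 0) of the cytosolic, TRiC, ER and mitochondrial chaperone genes in the 3 cytokine groups (x), each point 1 library and grey lines joining equal replicate numbers. ER sums are lowest with IFN-γ in all 3 numbers and mitochondrial sums are lowest with IL-27 in all 3. A few abundant genes make up most of the ER and mitochondrial sums.

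IFN-γ and IL-27 were then compared directly, to test the difference between the cytokines. The median log2 difference, IFN-γ minus IL-27, was -0.23 in the ER (14 of 18 genes lower), 0.18 in mitochondria (6 of 8 higher) and 0.02 in the cytosol, against 0.01 over all genes tested. Without IL-27 replicate 3 the mitochondrial median was -0.06 and the cytosolic median -0.08. limma called 0 of the 68 genes without the block (background 0%) and 0 with it (background 0.182%), and the smallest adjusted p without the block was 0.831. At an unadjusted p under 0.05, 3 were lower with IFN-γ (Hspa13, Hspa4 and Dnajc12) and 1 higher (Hspb11; background 1.73% and 2.66%), of which Dnajc12 and Hspb11 were named after their values were seen. Hspa13 differed by -0.76 (95% interval -1.35 to -0.17) and Hspa4 by -0.67 (-1.24 to -0.10), with IFN-γ libraries below all IL-27 libraries for both. Hsp90b1 differed by -0.52 (-1.08 to 0.04) and Hspe1 by 0.43 (-0.12 to 0.99).

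Other genes of these pathways, 69 co-chaperones, ER folding enzymes and regulators of which 67 were tested, were read from a separate list. With IFN-γ, limma called 1 lower and 0 higher without the block, against a background of 2.91%. With the block it called 14 lower and 2 higher, against 4.66% and 6.51% of all genes (8 lower and 1 higher among 30 ER genes, 6 lower and 1 higher among 25 cytosolic genes, none among 12 mitochondrial genes). With a pair left out, the blocked counts were 3 lower and 2 higher without replicate 1, 3 lower and 0 higher without replicate 2, and the same numbers without replicate 3. No share of all genes is given for these fits. Ero1l, an ER oxidase named after its values were seen, was called lower in each of these 3 fits. It was at 333 to 1198 FPKM under IL-33 alone, 120 to 197 with IFN-γ and 218 to 536 with IL-27. Its relative Ero1lb went the other way, at 9.4 to 11.3, 15 to 40.1 and 15.1 to 29.4 FPKM. Ero1lb and Stub1, both named after their values were seen, were the 2 genes called higher without replicate 1. The gene called without the block was Txndc5 (ERp46), an ER isomerase, from 75.0, 70.2 and 65.6 FPKM under IL-33 alone to 27.6, 41.0 and 38.6 with IFN-γ, against 51.7, 57.9 and 62.7 with IL-27. All IFN-γ libraries lay below the others, at -0.97 ± 0.19 (1.96-fold lower, limma adjusted p 0.0227, blocked 0.00680). The unblocked limma call was lost in some of the fits with a single library omitted and kept in the others. Where it was lost, limma's adjusted p was 0.0839 without IL-33 replicate 1 and 0.0793 without IL-33 replicate 2. It was 0.0674 without IFN-γ replicate 1 and 0.0566 without IFN-γ replicate 3. The unblocked call was also lost without replicate 3 in all groups (limma adjusted p 0.0899) and with 2 groups fitted alone (0.0694). The blocked limma call was lost without the replicate 2 libraries (also 0.0694). With IL-27 limma called 0 of the 67 without the block (background 1.03%). At an unadjusted p under 0.05 it gave 6 lower and 1 higher (background 3.61% lower and 5.89% higher). With the block, limma called 2 lower (Fkbp4 and Pfdn2, named after their values were seen), against a background of 1.78% lower. The blocked count was 0 whichever of the 3 pairs was left out.

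Of the regulators, Xbp1, a transcription factor of the unfolded protein response, was at 181, 206 and 326 FPKM under IL-33 alone, 120, 165 and 170 with IFN-γ, and 181, 177 and 209 with IL-27. Its IFN-γ libraries lay below all others (-0.61 ± 0.23, limma adjusted p 0.245, blocked 0.0359), and the blocked limma call was lost whichever pair was left out (adjusted p 0.101, 0.117 and 0.152 without replicates 1, 2 and 3). Atf4, which acts in the integrated stress response, was at 140, 143 and 154 FPKM under IL-33 alone, 100.3, 95.4 and 58.7 with IFN-γ, and 93.6, 96.8 and 85.5 with IL-27, both groups below IL-33. Its difference was -0.81 ± 0.21 with IFN-γ (limma adjusted p 0.0748, blocked 0.0234) and -0.66 ± 0.21 with IL-27 (0.271, blocked 0.0730). The blocked limma call with IFN-γ was likewise lost each time (adjusted p 0.0546, 0.126 and 0.0657). Ddit3 (CHOP), induced under ER stress, overlapped in all groups at 8.43 ± 5.77, 8.82 ± 2.75 and 12.1 ± 4.49 FPKM (SD, n = 3). Hsf1, the transcription factor of the heat shock response, was at 17.4 ± 3.94, 12.1 ± 3.06 and 13.5 ± 5.15 FPKM, and neither fit called it.

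Levels also differed by replicate number. Replicate 3 was the lowest of its group in all 3 groups for 7 of 8 TRiC subunits (87.5%), 5 of 8 mitochondrial genes (62.5%), 13 of 35 cytosolic genes (37.1%) and 0 of 18 ER genes, against 13% of all genes tested. It was the highest in all 3 groups for 3 ER genes (Dnajc3, Hspa13 and Pdia3; 16.7%), against 15.8% of all genes.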

How the data were processed

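The 9 libraries were made with TruSeq RNA v2 kits, per the labels' protocols. Per the submitters' processing notes, the authors used Bowtie2 2.1.0, TopHat2 2.0.8 and Cufflinks 2.1.1 with build mm9; the annotation is not given in the sources used here. The deposited tables hold 1 value per gene, taken as FPKM because Cufflinks is named and the sums differ between libraries (628625 to 672534). Tables of replicate 3 carry 1 decimal and digit-grouping commas, which were removed. Depth was estimated from the steps between low values and is approximate. Gene identifiers and mm9 coordinates came from GENCODE vM1 (87 of 88 genes had a single match).

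Values were analysed as log2(FPKM + 1), for the 11014 genes averaging 1 FPKM or more, in 1 fit over 3 groups with limma 3.58.1 (trend, two-sided, R 4.3.3), and p-values were adjusted by Benjamini-Hochberg over all genes of a comparison. Low values make folds on this scale too small. The script was tested on simulated data. Over 11014 genes, deviations from group means correlated at 0.128 to 0.367 in the 9 pairs with equal numbers and -0.298 to -0.0251 in the 18 others, so the numbers were taken as pairs and a blocked fit was added. Deviations cancel within a group, so the negative values follow largely from the positive ones and are no separate support. The labels do not state a pairing. Named genes were the 5 most abundant tested members of each compartment, a set list of stress-inducible and defining members, 4 regulators, members and partners past the threshold, and up to 10 members per comparison called with the block only; others are marked. Members, lists and rule were chosen with earlier results of these data known. Alternatives were another pseudocount (0.1), filter (none or 5 FPKM), scaling, 2 groups alone, the block and libraries left out. Python 3.11.15, pandas 2.3.3 and matplotlib 3.10.9 were used. Protein sequences were not used here.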

Additional observations from a re-analysis of the deposited data

How the results depend on the processing

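Counts of called members depended on the replicate block and, within the blocked fit, on which pairs of libraries entered. With IFN-γ against IL-33, limma called 0 members, 2 after quantile normalisation (both ER: Hsp90b1 and Hspa5), 13 with the replicate block (7 cytosolic, 5 ER and 1 mitochondrial) and 13 again with the block after median-ratio scaling (7, 5 and 1). Leaving out single libraries gave 0 to 1 (1 cytosolic gene, Dnajc24, without IL-27 replicate 3), and 0 to 0 in the ER and mitochondria. With the block, 5 were called without the replicate 1 libraries (3 cytosolic, 1 ER and 1 mitochondrial), 0 without replicate 2, and 2 without replicate 3 (1 cytosolic and 1 mitochondrial). With IL-27 against IL-33, limma called 0 members, 8 with the replicate block (5 cytosolic and 3 mitochondrial), 9 with the block after median-ratio scaling (6 and 3, the added one being Cct3), 2 with the block without replicate 1 (1 and 1), 0 without replicate 2 and 2 without replicate 3 (both mitochondrial). The blocked alternatives with libraries left out or rescaled were chosen after seeing the data, and the cause of these changes was not tested beyond fewer libraries entering. Between IFN-γ and IL-27, 0 members were called under every alternative run. Over all genes, the block raised the calls from 320 to 1230, from 113 to 567 and from 0 to 20 in the 3 comparisons. Shares over all genes are not given for the other alternatives, so their counts of members stand without a background. Over 21 alternatives the median log2 fold change with IFN-γ against IL-33 ranged from -0.41 to -0.29 in the ER, -0.34 to -0.14 in the cytosol and -0.40 to -0.11 in mitochondria. With IL-27 it ranged from -0.29 to -0.10, -0.31 to -0.13 and -0.51 to -0.21. In the direct comparison it ranged from -0.34 to -0.12 in the ER and crossed 0 in the cytosol (-0.10 to 0.10) and mitochondria (-0.06 to 0.32). Under median-ratio scaling and quantile normalisation, 0 of 24 named tested members changed sign against IL-33, and 2 did between IFN-γ and IL-27. With libraries left out, up to 2 changed sign with IFN-γ, up to 5 with IL-27 (without IL-27 replicate 1) and up to 7 between the cytokines (without IL-27 replicate 3). Over 21 alternatives the adjusted p with IFN-γ ranged from 0.00116 to 0.574 for Hspd1, 0.0116 to 0.280 for Hsp90b1, 0.0314 to 0.337 for Hspa5 and 0.0064 to 0.517 for Hsph1. With 3 libraries a group and depths of at most 982000 fragments, genes near 1 FPKM were not resolved.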

Other observations

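A few members outside the classical chaperone sites had the widest differences between IFN-γ and IL-27, and were named after their values were seen. Hspb11, which despite its symbol is part of the intraflagellar transport machinery, was at 8.6, 23.6 and 16.9 FPKM under IL-33 alone, 14.2, 34.5 and 27.3 with IFN-γ, and 11.6, 7.87 and 10.8 with IL-27. The IFN-γ libraries were above all IL-27 libraries and overlapped those with IL-33. The difference from IL-27 was 1.18 on the log2 scale, with a limma adjusted p of 1 (blocked 0.236). Dnajc12, a J protein known as a partner of the aromatic amino acid hydroxylases, was at 2.15, 4.91 and 4.6 FPKM under IL-33 alone, 3.20, 0.993 and 2.0 with IFN-γ, and 7.62, 4.91 and 7.1 with IL-27. It was lower with IFN-γ than with IL-27 in all 3 pairs, by -1.35 on the log2 scale (limma adjusted p 0.831, blocked 0.225), at levels where few fragments stand behind each value.

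Pdia5, the isomerase PDIR of the ER, had the most negative log2 fold change of the ER genes in both comparisons with IL-33, and was also named after its values were seen. It was at 5.07, 8.12 and 13.1 FPKM under IL-33 alone, 2.52, 1.17 and 6.0 with IFN-γ, and 1.93, 3.48 and 3.0 with IL-27. All 6 libraries with a second cytokine were below the IL-33 library of their number. Few fragments stand behind the lowest of these values. The differences were -1.29 ± 0.46 with IFN-γ (limma adjusted p 0.211, blocked 0.0625) and -1.30 ± 0.46 with IL-27 (0.358, blocked 0.0938), so neither fit called it.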
